A study of Mus musculus with 18 samples.

Results

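Gene expression of the mouse carotid artery 21 days after wire injury was compared with that before injury. Of the 18 libraries of the series, 4 are labelled day 21 and 4 day 0, and these 8 were chosen by their labels alone. All 35655 genes in the table were considered, and 10312 of them held enough counts to be tested. The animals were young adult male wild-type mice of the C57/BL6 strain, and all 8 libraries come from this 1 genotype. The day 0 group is labelled pre-injury, and the day 21 group had its carotid injured by a wire 21 days earlier. In both groups the carotid wall was cut out of stained sections by laser, in an area described as holding the neointima and the outer elastic lamina. Which layers a day 0 library holds is not stated. Thrombosed vessels had been removed, RNA was pooled over many sections, and the methods use the right, uninjured carotid as a control. Whether a day 0 library is such a vessel of an injured mouse is not stated. The names of 3 day 0 and 3 day 21 libraries share a number, and what it marks is not stated either. The comparison asks which genes differ once a neointima has formed.

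A wire drawn through the artery strips the endothelium and stretches the media, and cells accumulate between the lumen and the inner elastic lamina over the following weeks as a neointima. Smooth muscle cells of the healthy media hold large amounts of actin, myosin and their partners, and after injury they are known to lose these proteins, divide, migrate and secrete matrix. Monocytes enter the wall and become macrophages, which take up debris and lipid.

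RNA was measured by MACE, which counts 1 tag near the 3′ end of each transcript, with duplicates removed by molecular identifiers. The authors deposited estimated counts per gene. Totals were 689455 to 869924 counts on day 0 and 440675 to 878310 on day 21, and between 10792 and 13296 genes had a count in these libraries. Levels are given as CPM, a gene's counts over the TMM-scaled total of the tested genes in its library, on the usual counts-per-million scale. Differences are log2 fold changes of day 21 over day 0 from edgeR's quasi-likelihood test, with their standard error (SE) and a p adjusted by Benjamini-Hochberg over all genes tested, and a gene is called at an adjusted p under 0.05. A gene with no library of a group above 3 counts has only a lower bound of its fold, computed as if each such library held 3 counts, which covers counting error only. All 5 smooth muscle markers were counted in all 8 libraries, at 30500 to 35600 summed CPM on day 0 and 7930 to 21100 on day 21, so that both groups carry the labelled tissue. The defining adventitial fibroblast markers summed to 807 to 1710 CPM on day 0 and 347 to 758 CPM on day 21. Among them Pdgfra did not fall, with 14.9 to 41.7 CPM on day 0 and 40.4 to 93.4 on day 21. All 15 adventitial fibroblast genes tested summed to 3574 to 4749 CPM on day 0 and 3956 to 5925 on day 21. The part of these cells in the results was not tested. The tissue is a mixture, and fewer cells of a type cannot be told apart from less RNA of a gene per cell.

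On day 21, 912 of the 10312 genes tested were called, which is 8.84%. Of these, 610 were higher (5.92% of the genes tested) and 302 lower (2.93%). The counts of the lists below stand against these shares. For 531 of the higher genes (5.15% of those tested) and 277 of the lower (2.69%) every day 21 library lay beyond every day 0 library. Genes called higher took 4.81% to 5.74% of a library's counts on day 0 and 16.9% to 22.1% on day 21. Those called lower went from 19.3% to 20.3% down to 7.83% to 10.6%. The median log2 fold change over all genes tested was 0.07, and the median size among called genes was 2.1. The higher genes with the smallest p were Ltbp2, Col8a1, Aif1, Mpeg1, Col1a1, Col1a2, Laptm5, C1qb, Lpl, Cd72, Spp1, Lum, Col3a1, Ccn4 and Fn1. The lower ones were Tppp3, Des, Perp, Hspa2, Ndufs5, Pbxip1, Pgm5, Suclg1, Sparcl1, Fth1, Ngef, Msrb1, Galnt16, Stimate and Sh3bgr. Both sets were taken from genes whose groups did not overlap. The filter used all days of the series, and 150 genes tested had no count on day 0 and 2 had none on day 21. A gene with no count on day 0 could not be called lower. Among called genes, 190 higher and 8 lower had only a bound for their fold. In the fit of days 0 and 21 alone, 423 of 8093 genes tested were higher and 405 lower.

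**Figure D1:**
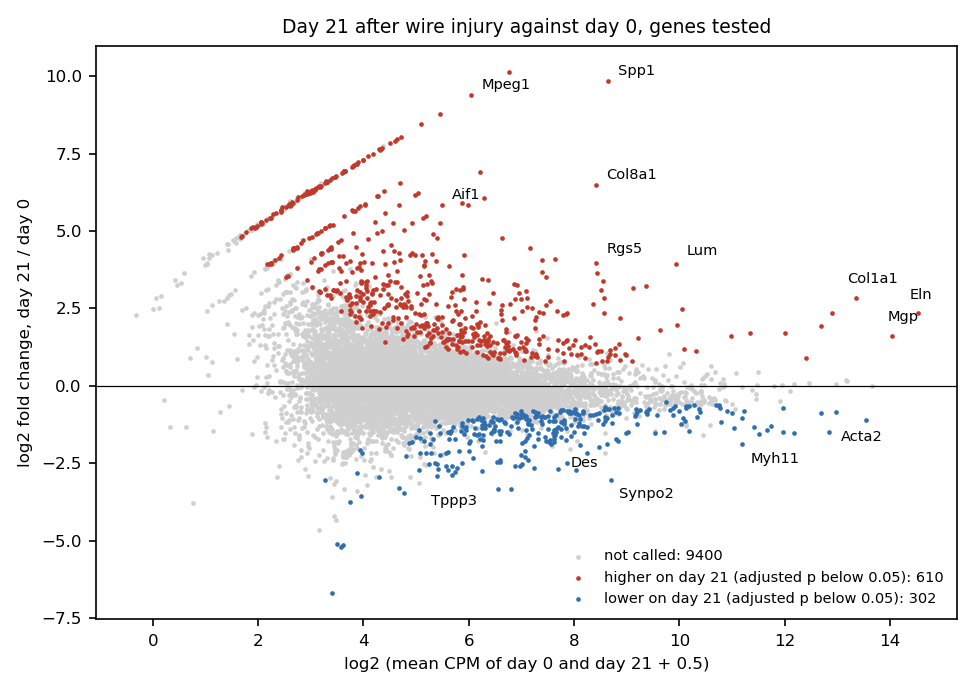
Each point is 1 of the 10312 genes tested, with the log2 of its mean CPM over day 0 and day 21 (plus 0.5) on the horizontal axis and its log2 fold change on the vertical axis. The 610 genes called higher are red and the 302 called lower are blue, and the straight band of red points at the upper left holds genes with no count on day 0, whose fitted fold change depends on the prior count.

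Contractile smooth muscle genes fell. Of the 33 genes of the list that were tested, 19 were called lower and 0 higher (57.6% against 2.93% lower over all genes tested), with a median log2 fold change of -1.28. Their summed level was 82320, 75680, 82380 and 76910 CPM in the 4 day 0 libraries and 29710, 22300, 45280 and 34640 CPM on day 21. Every day 21 library was below every day 0 library, and day 21 replicate 3 kept the most. The number lower was 11 when day 21 replicate 1 was left out and 12 when replicate 2 was.

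Acta2 encodes smooth muscle alpha actin and lies on chromosome 19 from 34217737 to 34232990 in GRCm39. It had 16630, 14630, 16220 and 17970 CPM on day 0 and 6552, 4226, 11600 and 7944 CPM on day 21, a log2 fold change of -1.11 (SE 0.336, adjusted p = 0.0385 from edgeR). The groups did not overlap, but the call was lost in 7 of the alternatives, all of them fits without 1 library of these groups, the least certain of which, without day 21 replicate 2, gave an adjusted p of 0.117 (edgeR). Myh11, the smooth muscle myosin heavy chain on chromosome 16 from 14012399 to 14109236, had 4181, 3449, 3464 and 3632 CPM on day 0 and 816, 595, 1500 and 1059 CPM on day 21. Its log2 fold change was -1.89 (SE 0.494, adjusted p = 0.0163 from edgeR), and the call was lost when day 21 replicate 1 or 2 was left out, with an adjusted p of up to 0.0577. Tagln, which encodes the actin-binding protein transgelin, went from 11660, 9676, 11650 and 10150 CPM to 2964, 2272, 6136 and 3958 CPM, a log2 fold change of -1.49 (adjusted p = 0.034 from edgeR, lost in 8 alternatives). In each of these genes day 21 replicate 3 was the highest of its group.

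The genes of this list with the smallest p were those of filaments and their anchors. Synpo2, an actin-bundling protein of the Z-disc and dense bodies, had 655, 727, 745 and 827 CPM on day 0 and 88.7, 68.6, 127 and 76.8 CPM on day 21, a log2 fold change of -3.02 (SE 0.574, adjusted p = 0.00142 from edgeR). Des encodes the intermediate filament desmin and fell from 345, 348, 474 and 276 CPM to 78.1, 40.4, 75.6 and 23.3 CPM (log2 fold change -2.69, SE 0.411, adjusted p = 0.000155 from edgeR). Flna, the actin crosslinker filamin A, and Mylk, the kinase of the myosin light chain, fell by 1.51 and 1.44 on the log2 scale. For all 4 the groups lay apart. Cnn1, the calponin of smooth muscle, was also lower in every day 21 library (2177 ± 156 CPM on day 0, SD, n = 4, and 899 ± 343, SD, n = 4, on day 21) but stood just past the threshold (adjusted p = 0.0509 from edgeR). Smtn, Vcl, Cald1 and Synm, also of this apparatus, were not called, with log2 fold changes of -0.57, -0.46, -0.57 and 0.49.

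Serum response factor is known to bind the CArG box in the promoters of many contractile genes, so the box was searched by its consensus of 10 bases in the 250 bases before the start of the canonical transcript (GRCm39, GENCODE M39). The consensus reads the same on both strands. It was present in 304 of 21751 protein-coding promoters (1.4%), in 122 of 10014 promoters of genes tested (1.22%), in 10 of 596 of genes called higher (1.68%) and in 9 of 297 of genes called lower (3.03%). In the contractile list it was present in 3 of 33 genes tested (9.09%) and in 2 of 19 called lower (10.5%). Both of the latter are shown, Tagln at chr9:45847405-45847654 on the minus strand and Filip1l, chosen after its values were seen, at chr16:57369355-57369604 on the plus strand. Each runs 5′ to 3′ up to the base before the start, with the box in capitals.
Tagln: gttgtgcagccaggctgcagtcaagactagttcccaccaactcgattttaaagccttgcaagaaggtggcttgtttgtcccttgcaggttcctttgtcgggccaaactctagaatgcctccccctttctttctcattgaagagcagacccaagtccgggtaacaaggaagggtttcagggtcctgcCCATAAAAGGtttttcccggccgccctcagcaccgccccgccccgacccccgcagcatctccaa
Filip1l: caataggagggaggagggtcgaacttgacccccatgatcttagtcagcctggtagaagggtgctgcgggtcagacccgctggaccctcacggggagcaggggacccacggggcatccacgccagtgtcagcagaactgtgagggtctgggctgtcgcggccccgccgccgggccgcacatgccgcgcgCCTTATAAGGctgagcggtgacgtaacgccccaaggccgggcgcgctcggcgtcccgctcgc
The box begins at -64 in Tagln and at -62 in Filip1l, counted back from the start. Filip1l, a filamin-interacting protein, had 283, 350, 253 and 420 CPM on day 0 and 79.3, 46.4, 146 and 144 CPM on day 21 (log2 fold change -1.65, SE 0.444, adjusted p = 0.0195 from edgeR). The third gene, Vcl, was not called. A match is a description of these letters and not evidence of binding.

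**Figure D2:**
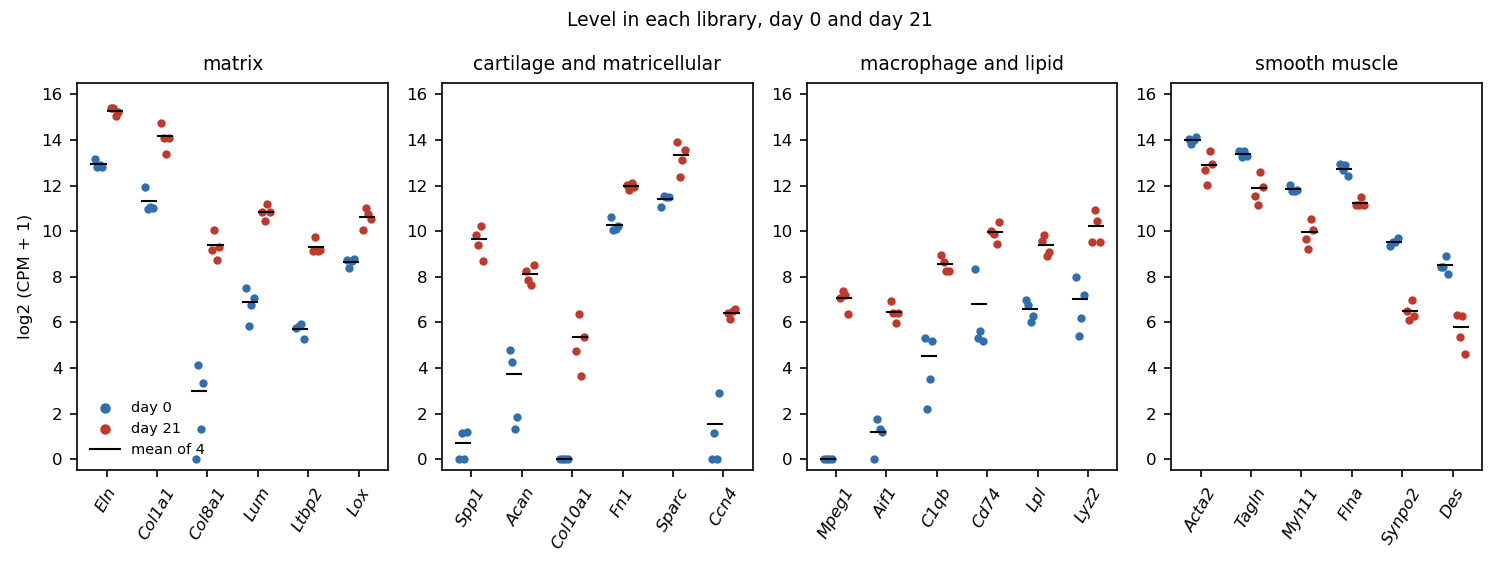
Levels of 24 named genes in each of the 8 libraries as log2 of CPM plus 1, with day 0 in blue, day 21 in red and a black bar at the log2 of the mean of 4. In all 24 genes the red and blue points do not overlap, and the smooth muscle genes are the only panel in which the red points lie below. Some of the 24 were named by a rule that required groups that did not overlap.

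Other genes of muscle function moved less evenly. In the list of calcium, potassium and vasoactive signalling genes 4 of 22 were lower (18.2%) and 1 higher (4.55%, against 5.92% over all genes tested). The number lower was 2 without day 0 replicate 4, day 21 replicate 1 or day 21 replicate 2. Atp2a2, the calcium pump of the sarcoplasmic reticulum, fell from 521 ± 37.5 to 224 ± 50.7 CPM (SD, n = 4 each) with a log2 fold change of -1.22 (SE 0.237, adjusted p = 0.00189 from edgeR). The gene that went the other way was Rgs5, a regulator of G protein signalling abundant in pericytes. It had 50.6, 46.6, 38.8 and 27.6 CPM on day 0 and 150, 1181, 314 and 914 CPM on day 21, a log2 fold change of 3.96 (SE 0.673, adjusted p = 0.000502 from edgeR). All 4 day 21 libraries were above day 0, though they spread widely, with replicates 2 and 4 the highest. Caveolae, the membrane pits of smooth muscle, had Cav1 and Cavin1 lower (2 of 6 tested, 33.3%).

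In the Notch pathway 3 of 14 genes were higher (21.4%) and 0 lower. Notch3, the receptor of arterial smooth muscle, rose from 19.4, 22.7, 22.4 and 26.3 CPM to 97.0, 105, 67.4 and 172 CPM (log2 fold change 2.26, SE 0.39, adjusted p = 0.000556 from edgeR). Its ligand Jag1 rose with a log2 fold change of 1.87 (SE 0.334, adjusted p = 0.000785 from edgeR). The endothelial ligand Dll4 was not counted on day 0, and its rise was at least 3.73-fold. The target gene Heyl was not called and had a log2 fold change of -1.16.

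Genes of the elastic fibre, which gives the artery its recoil, were led by elastin. Elastin (Eln, chromosome 5 from 134731445 to 134776322) had 9097, 7185, 7718 and 7294 CPM on day 0 and 43590, 42890, 33480 and 38300 CPM on day 21. The groups lay far apart, and the log2 fold change was 2.34 (SE 0.459, adjusted p = 0.00198 from edgeR). Of 16 elastic fibre genes 4 were higher (25%) and 1 lower (6.25%). Ltbp2, a microfibril-associated protein on chromosome 12 from 84829986 to 84923306, had the smallest p of all genes tested. Its levels were 52.1, 56.2, 59.6 and 38.1 CPM on day 0 and 556, 866, 557 and 579 CPM on day 21 (log2 fold change 3.63, SE 0.266, adjusted p = 5.1e-09 from edgeR). Fibrillin 1 (Fbn1) and fibulin 2 (Fbln2) rose by log2 fold changes of 1.17 and 1.51, and Fbln1 fell by 1.71. The microfibril genes Mfap4 and Mfap5 and the elastin assembly genes Efemp2 and Emilin1 were not called (-1.52, -0.37, 0.25 and 0.48), so that the list's median was 0.36.

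Fibrillar collagens, which give the wall its tensile strength, were higher in 7 of 10 genes tested and lower in 0, against 5.92% higher over all genes tested, with a median log2 fold change of 2.25. Col1a1 had 3953, 2031, 2143 and 2071 CPM on day 0 and 27260, 17530, 10740 and 17660 CPM on day 21 (log2 fold change 2.84, SE 0.277, adjusted p = 4.1e-07 from edgeR). Day 0 replicate 1 was the highest of its group and still below every day 21 library. Col1a2, Col3a1, Col5a1 and Col5a2 had log2 fold changes of 2.35, 1.71, 1.24 and 1.56. Col2a1, the collagen of cartilage, also counts among the 7, but it had 859 CPM in day 21 replicate 1 and 0 to 10.1 CPM in the other three, and without that library its adjusted p was 0.367 (edgeR). The same library held 157 CPM of Acta1 and 44.95 CPM of Mylpf, both genes of skeletal muscle, against 0 to 4.04 CPM in the other 3 day 21 libraries. The part of either tissue in the level of Col2a1 was not tested.

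Among other collagens 5 of 11 were higher and 0 lower. The network-forming collagen VIII of the vessel wall stood out. Col8a1, on chromosome 16 from 57444621 to 57575100, had 0, 16.7, 1.49 and 9.19 CPM on day 0 and 570, 1051, 428 and 638 CPM on day 21 (log2 fold change 6.49, SE 0.585, adjusted p = 2.1e-07 from edgeR). Its partner Col8a2 had no count on day 0 and 34.3, 32.3, 3.29 and 25.6 CPM on day 21, at least 5.80-fold higher. Col10a1, a collagen of hypertrophic cartilage, had no count on day 0 either and 26.0, 80.7, 11.5 and 39.6 CPM on day 21, at least 9.59-fold higher. Col12a1, which decorates collagen I fibrils, rose from 0, 1.20, 5.96 and 0 CPM to 135, 226, 46.0 and 53.5 CPM. Col15a1 and Col18a1, the multiplexins of basement membrane zones, were not called (log2 fold changes -0.19 and -0.01).

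Enzymes and chaperones that mature collagen were higher in 8 of 21 genes and lower in 0. Lysyl oxidase (Lox), which crosslinks collagen and elastin, rose from 429, 330, 408 and 436 CPM to 1075, 2061, 1717 and 1475 CPM (log2 fold change 1.98, SE 0.272, adjusted p = 4.1e-05 from edgeR). P4ha3, a prolyl hydroxylase subunit, was at least 6.38-fold higher, and Loxl3 and the procollagen protease enhancer Pcolce each rose by a log2 fold change of 1.47. The collagen chaperone Serpinh1 was not called (0.44). In the general secretory pathway of the endoplasmic reticulum 0 of 35 genes were called in either direction by edgeR, 3 had an unadjusted p under 0.05 and DESeq2 called 0, with a median log2 fold change of 0.14.

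Basement membrane genes were higher in 5 of 17 (29.4%) and lower in 0. Lamb1, the laminin beta 1 chain, rose from 16.4, 4.78, 0 and 5.25 CPM to 73.3, 74.7, 65.8 and 67.5 CPM (log2 fold change 3.39, SE 0.552, adjusted p = 0.000311 from edgeR). Nid1 and Nid2, the nidogen linkers, were also higher. The list is fragile, with 2 genes higher without day 0 replicate 2 or 3 and 3 without day 0 replicate 1 or 4 or day 21 replicate 1, 3 or 4. Perlecan (Hspg2), the heparan sulfate proteoglycan of these membranes, did not pass the test (log2 fold change -0.17).

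Proteoglycans were higher in 7 of 15 genes and lower in 0, or in 4 without day 0 replicate 3. Lumican (Lum, chromosome 10 from 97400990 to 97408577), which regulates collagen fibril spacing, had 182, 56.2, 107 and 133 CPM on day 0 and 1819, 1395, 2322 and 1813 CPM on day 21 (log2 fold change 3.95, SE 0.464, adjusted p = 6.3e-06 from edgeR). Fibromodulin (Fmod) and syndecan 1 (Sdc1) rose by 2.37 and 2.60. Biglycan (Bgn) and decorin (Dcn), proteoglycans of the resting wall, were not called, with log2 fold changes of 0.18 and 0.25.

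Matricellular proteins, which signal to cells from the matrix, were higher in 10 of 20 genes and lower in 1, with a median log2 fold change of 1.64. Osteopontin (Spp1, chromosome 5 from 104582165 to 104589235, with exons that overlap Gm42793 on the same strand) had 0, 1.20, 0 and 1.31 CPM on day 0 and 918, 664, 1196 and 414 CPM on day 21. The rise was at least 194-fold (edgeR, adjusted p = 3.6e-06), and no day 0 library held more than 1 count. Ccn4, a Wnt-induced secreted protein, rose from 0, 1.20, 0 and 6.56 CPM to 82.8, 70.6, 90.4 and 95.4 CPM (log2 fold change 5.26, SE 0.63, adjusted p = 7.8e-06 from edgeR). Fibronectin (Fn1) and Sparc, both more abundant on day 0 already, rose by 1.70 and 1.92. Sparcl1, a relative of Sparc in quiescent vessels, was the 1 that fell, from 470, 398, 335 and 610 CPM to 61.5, 70.6, 98.7 and 46.5 CPM (log2 fold change -2.70, SE 0.471, adjusted p = 0.000608 from edgeR).

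Genes of cartilage and mineralization were higher in 13 of 20 tested and lower in 0, with a median log2 fold change of 2.61, or 2.35 with 6 genes at their bound. Another 12 of the 32 listed were not tested for lack of counts, among them Col9a1, Matn1, Cnmd and Bglap. Some lists share genes, so their counts are not independent. Of the genes higher here, Spp1 also counts among the matricellular genes and Acan among the proteoglycans. Aggrecan (Acan, chromosome 7 from 78702964 to 78764847), the large proteoglycan of cartilage, had 26.8, 17.9, 1.49 and 2.63 CPM on day 0 and 299, 232, 196 and 370 CPM on day 21 (log2 fold change 4.46, SE 0.658, adjusted p = 0.000101 from edgeR). All 4 day 21 libraries were high, unlike for Col2a1. Comp, a linker of collagen and matrix, and Frzb, a secreted Wnt antagonist of cartilage, rose by 2.85 and 2.33. Matrix Gla protein (Mgp), an inhibitor of calcification, rose from 8261 ± 479.6 to 25220 ± 2365 CPM (SD, n = 4 each), with a log2 fold change of 1.61 (adjusted p = 0.00479 from edgeR). The number higher was 8 without day 0 replicate 3, day 0 replicate 4 or day 21 replicate 1. Sost, the antagonist of Wnt signalling in bone that the carotid media expresses, did not pass the test (1583 ± 474 and 651 ± 413 CPM, SD, n = 4 each).

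Enzymes that cut matrix, and their inhibitors, were higher in 8 of 25 and lower in 0. Mmp2, the gelatinase of mesenchymal cells, rose from 267, 161, 106 and 138 CPM to 796, 918, 860 and 510 CPM (log2 fold change 2.20, SE 0.283, adjusted p = 1.9e-05 from edgeR), and Mmp14, its membrane activator, rose by 1.82. The inhibitor Timp1 rose by 2.37, while Timp2 and Timp3 were not called (0.31 and -0.29). Cathepsin K (Ctsk), a collagenase of macrophages and osteoclasts, rose from 8.68 ± 13.03 to 108 ± 38.9 CPM (SD, n = 4 each).

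Growth factors and Wnt antagonists were among the secreted regulators that rose. In the TGF-beta and BMP pathway 1 of 23 genes was higher, which is Ltbp2 again, and 0 lower. That is 4.35% higher, against 5.92% over all genes tested, and the median log2 fold change was -0.12. Among growth factors and receptors 8 of 21 were higher (38.1%) and 1 lower (4.76%, against 2.93% over all genes tested). The number higher was 5 without day 0 replicate 2, day 0 replicate 4 or day 21 replicate 2. Igfbp2, a binding protein of insulin-like growth factors, rose from 93.8, 28.7, 83.5 and 59.1 CPM to 891, 367, 735 and 738 CPM (log2 fold change 3.37, SE 0.424, adjusted p = 1.6e-05 from edgeR), and Igfbp4 fell by 0.79. The call of Igfbp4 was lost in 7 of 27 alternatives, 5 of them fits without day 0 replicate 1 or 2 or day 21 replicate 1, 2 or 4. Pdgfc, a ligand of the PDGF receptors, rose by 1.72, and the receptors Pdgfra and Pdgfrb did not pass the test (1.30 and 0.64). Of 8 Wnt antagonists 4 were higher, namely Sfrp2, Sfrp4, Dkk2 and Frzb. Wif1 was lower, with 118, 167, 219 and 302 CPM on day 0 and 11.8, 0, 47.7 and 18.6 CPM on day 21 (log2 fold change -3.34, SE 0.837, adjusted p = 0.0123 from edgeR, or 0.0509 without day 21 replicate 1). Of 23 integrins 6 were higher (26.1%) and 2 lower (8.7%, Itga1 and Itga3). In the fit of days 0 and 21 alone 2 were higher and 4 lower, and the call of Itga3 was lost in 10 of 27 alternatives. Itga11, a collagen receptor, had no count on day 0 and 56.8, 64.6, 21.4 and 53.5 CPM on day 21, at least 11.9-fold higher. Itga1, the collagen receptor of smooth muscle, fell by 1.40.

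**Figure D3:**
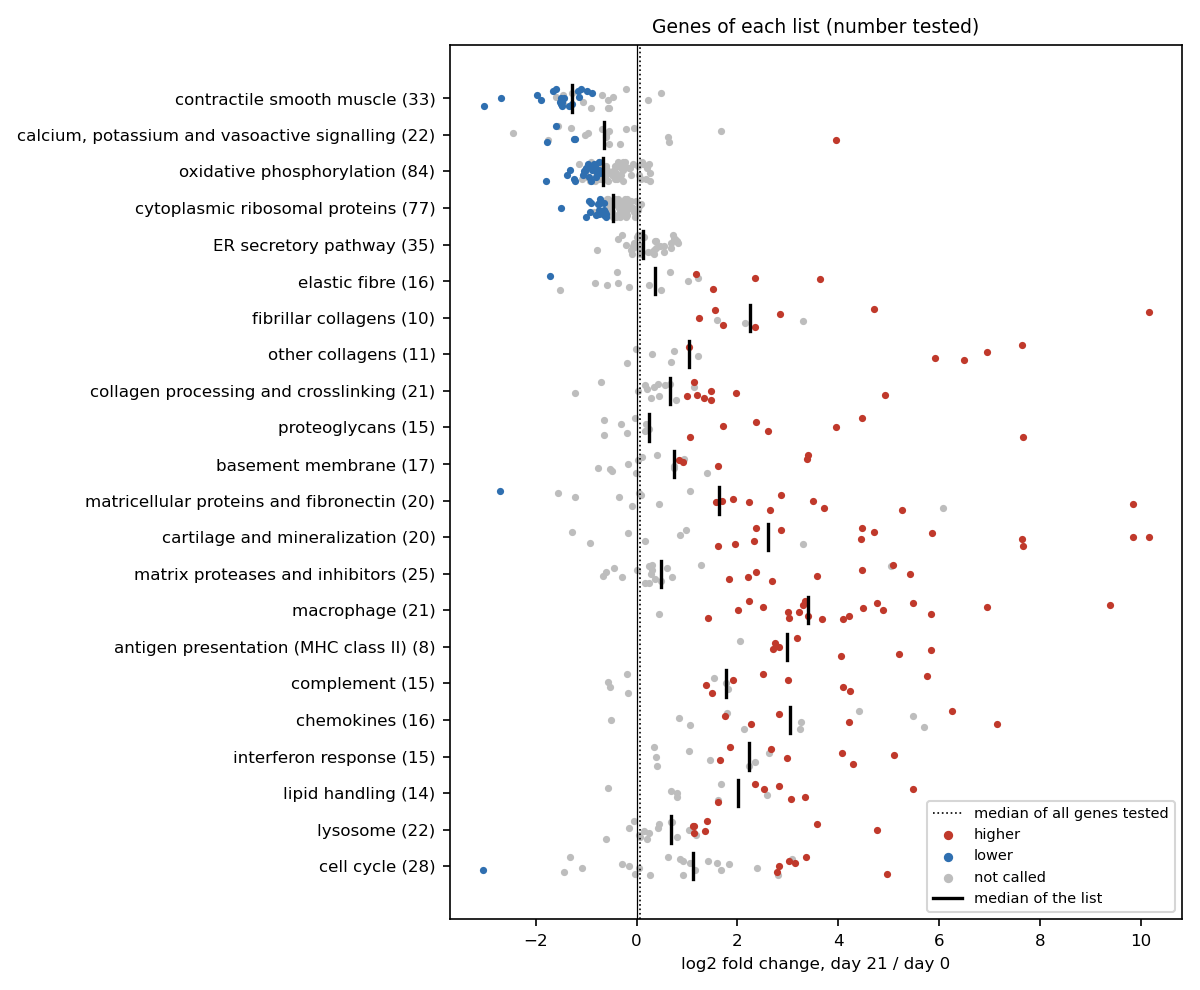
Each row is a list of genes, with the number tested in parentheses, and each point is the log2 fold change of 1 gene, red where called higher, blue where called lower and grey where not called. Black bars are the list medians, from -1.28 for contractile smooth muscle to 3.40 for macrophage genes, and the dotted line is the median of all genes tested at 0.07.

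Macrophage genes were higher in 20 of 21 tested and lower in 0, with a median log2 fold change of 3.40, or 3.29 with 5 genes at their bound. Their summed level was 178 to 765 CPM on day 0 and 2525 to 4394 CPM on day 21. Mpeg1, the pore-forming perforin of macrophages (chromosome 19, 12438114 to 12442649), was not counted on day 0 and had 134, 163, 146 and 81.4 CPM on day 21. The rise was at least 31.9-fold (edgeR, adjusted p = 2.1e-07). Aif1, which encodes the cytoskeletal protein Iba1, had 0 to 2.39 CPM on day 0 and 60.8 to 123 CPM on day 21, at least 21.3-fold higher. Lysozyme (Lyz2) rose from 255, 40.6, 73.0 and 147 CPM to 726, 1937, 1404 and 726 CPM (log2 fold change 3.22, SE 0.421, adjusted p = 2.4e-05 from edgeR). Day 0 replicate 1 was the highest of its group for Lyz2, as it was for C1qa with 110 CPM and Cd74 with 323 CPM. Over the 8 fits that leave out 1 of these libraries, 19 to 20 genes of the list were higher. Gpnmb was the 1 gene not called (log2 fold change 0.45).

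Antigen presentation by MHC class II had 7 of 8 genes higher, or 4 in the fit of days 0 and 21 alone and 5 to 8 in fits without 1 library of these days. Its invariant chain Cd74 had 323, 38.3, 47.7 and 35.4 CPM on day 0 and 1037, 924, 686 and 1336 CPM on day 21 (log2 fold change 3.17, SE 0.499, adjusted p = 0.000219 from edgeR). H2-Ab1, a class II beta chain, had 53.6, 20.3, 0 and 2.63 CPM on day 0 and 536, 76.7, 168 and 484 CPM on day 21. Complement was higher in 8 of 15 genes (5 without day 21 replicate 3), among them the C1q chains and the receptors C3ar1 and C5ar1. Chemokines were higher in 6 of 16 (37.5%), or in 3 without day 0 replicate 2 or 3. Their median log2 fold change was 3.04, or 1.78 with 7 genes at their bound. Cxcl12, a chemokine that stromal cells make, rose from 75.6 ± 17.1 to 367 ± 94.3 CPM (SD, n = 4 each), with a log2 fold change of 2.28 (adjusted p = 0.00015 from edgeR).

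Interferon-induced genes were higher in 7 of 15, among them Irf7, a transcription factor of this response (log2 fold change 4.29). That count was 2 in fits that left out day 21 replicate 1 or 4, 3 in those that left out day 0 replicate 2, 3 or 4, and 4 in that without day 21 replicate 3. Genes of lipid handling were higher in 7 of 14 (4 without day 0 replicate 3). Lipoprotein lipase (Lpl) rose from 127, 108, 64.1 and 77.4 CPM to 752, 904, 482 and 535 CPM (log2 fold change 2.83, SE 0.311, adjusted p = 2.3e-06 from edgeR). Apolipoprotein E (Apoe), already abundant on day 0, rose by 1.62, and Trem2, a lipid receptor of macrophages, was at least 17.1-fold higher. Of 22 lysosomal genes 7 were higher. Cathepsin S (Ctss) rose by 4.76 and cathepsin B (Ctsb) by 1.14, and cathepsin D (Ctsd) was not called (0.22).

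Genes of T and NK cells and of mast cells had few counts. Of the 12 listed genes of T and NK cells, 0 passed the filter, as did 0 of 5 of mast cells, and the defining T and NK cell markers summed to 0 to 20.9 CPM on day 0 and 18.6 to 26.3 CPM on day 21. Among B and plasma cell genes Igkc, the immunoglobulin kappa constant region, had no count on day 0 and 31.9, 60.5, 21.4 and 76.8 CPM on day 21, at least 11.6-fold higher. The neutrophil genes S100a8 and S100a9 were called on 1 library, day 21 replicate 3, with 242 and 240 CPM against at most 7.10 CPM in the other 3 day 21 libraries. Without it their adjusted p was 0.525 and 0.74 (edgeR), and the neutrophil list, with 3 of 4 higher, had 1. It also had 1 without day 0 replicate 1, 2 or 4.

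Endothelial genes were higher in 5 of 17 and lower in 0, but 2 when day 21 replicate 2 was left out and 3 when replicate 4 was. Of the defining endothelial markers Kdr was called higher, and Pecam1, Cdh5, Vwf and Tek were not called. The log2 fold changes of Cdh5, Vwf and Tek were 0.43, -0.78 and -0.68. Pecam1 had 485, 624, 642 and 409 CPM on day 0 and 310, 862, 536 and 430 CPM on day 21, so that the groups overlapped, with a log2 fold change of -0.02 (adjusted p = 0.987 from edgeR). Cldn5, an endothelial tight junction protein, rose from 22.2 ± 6.42 to 118 ± 52.0 CPM (SD, n = 4 each). Robo4 and Kdr rested on day 21 replicate 2, without which their adjusted p was 0.0863 and 0.0751 (edgeR). Genes of adventitial fibroblasts split, with 3 of 15 higher (Lum, Ly6a and Cd34) and 4 lower (Clec3b, Gsn, Dpep1 and Scara5). The call of Scara5 was lost in 11 of 27 alternatives, among them DESeq2 and the fits without any 1 of the day 0 libraries, with an adjusted p of up to 0.149. Clec3b, or tetranectin, had 453, 165, 173 and 148 CPM on day 0 and 37.9, 32.3, 64.1 and 41.9 CPM on day 21. Of the adipocyte genes 1 of 2 tested, Cfd, was higher, and the other, Fabp4, was not called (log2 fold change -0.57). Cfd had no count on day 0 and 69.8, 54.5, 141 and 4.65 CPM on day 21. The 2 genes summed to 195 to 274 CPM on day 0 and 137 to 378 CPM on day 21. Other groups were not called, such as the erythroid genes, whose defining markers summed to 31.3 to 243 CPM on day 0 and 30.3 to 141 CPM on day 21, with 0 of 5 called by edgeR and 0 at an unadjusted p under 0.05, and the skeletal muscle genes, with 0 of 2 called and 2 at an unadjusted p under 0.05. DESeq2 called 0 in both lists.

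**Figure D4:**
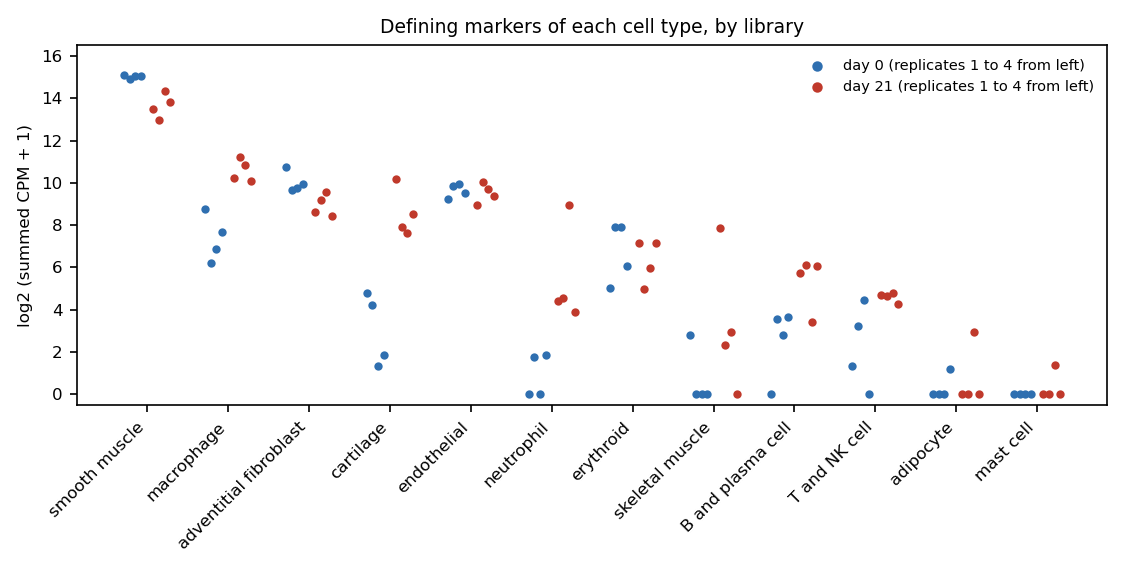
Summed CPM of the defining markers of 12 cell types as log2 of the sum plus 1, with the 4 day 0 libraries in blue and the 4 day 21 libraries in red, replicates 1 to 4 from left to right. Smooth muscle markers fell from at least 30500 CPM to at most 21100 CPM, macrophage markers rose from at most 435 CPM to at least 1080 CPM, and single libraries stand apart for cartilage and skeletal muscle (day 21 replicate 1) and neutrophils (day 21 replicate 3).

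Of 28 cell cycle genes 6 were higher (21.4%) and 1 (Mcm4) lower (3.57%, against 2.93% over all genes tested). The list's median log2 fold change was 1.12, or 0.92 with 8 genes at their bound. The mean level of each of the 6 was at most 29.5 CPM on day 21. Stmn1, which destabilizes microtubules, rose from 1.49, 4.78, 0 and 3.94 CPM to 29.6, 24.2, 13.2 and 51.2 CPM (log2 fold change 3.35, SE 0.699, adjusted p = 0.00311 from edgeR). The proliferation markers Mki67 and Top2a were not called (1.42 and 1.07). The number higher was 2 when day 0 replicate 3 was left out, 3 when day 0 replicate 1 or day 21 replicate 1, 2 or 4 was, 1 in the fit of days 0 and 21 alone, and 0 in the 6 libraries with a shared library number, with or without it as a block. Mcm4, a helicase subunit of DNA replication, lost its call in 12 of 24 alternatives, both blocks over all libraries included.

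Some nuclear-encoded genes of the respiratory chain and of the ribosome fell, against 2.93% lower over all genes tested. Of 84 genes of oxidative phosphorylation 23 were lower and 0 higher, with a median log2 fold change of -0.67, and the count was 15 when day 0 replicate 3 was left out and 14 when day 21 replicate 4 was. Ndufs5, a subunit of complex I, had 310, 276, 337 and 257 CPM on day 0 and 122, 113, 105 and 130 CPM on day 21 (log2 fold change -1.33, SE 0.229, adjusted p = 0.000556 from edgeR). Suclg1, a subunit of succinyl-CoA ligase in the citric acid cycle, fell by 1.75. Of 77 cytoplasmic ribosomal protein genes 17 were lower and 0 higher, with a median of -0.47, and the count was 10 without day 0 replicate 2, day 0 replicate 3 or day 21 replicate 1. Ferritin heavy chain (Fth1), which stores iron, fell from 4169, 5139, 4252 and 5227 CPM to 1819, 1116, 2401 and 1729 CPM (log2 fold change -1.41, SE 0.251, adjusted p = 0.000731 from edgeR). Immediate early genes and heat shock genes had 0 of 13 and 0 of 10 called by edgeR, with medians of -0.23 and -0.63. In each of these lists 2 genes had an unadjusted p under 0.05, and DESeq2 called 1 and 0. The heat shock list does not hold Hspa2, which was called lower. The list of the non-muscle actin cytoskeleton had 6 of 19 genes higher, among them the leukocyte actin regulators Coro1a and Lcp1, and 2 lower (Tmsb4x and Vim). Glycolysis had 1 of 16 genes higher (Ldha, 6.25% against 5.92% over all genes tested) and 2 lower (Pfkp and Pkm, 12.5% against 2.93%). The calls of Ldha and Pfkp were each lost in 7 of 27 alternatives. Actb, the actin of all cells, was not called, at 12880 ± 1838 and 12860 ± 849.6 CPM (SD, n = 4 each).

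Several of the genes with the smallest p among those that fell are in none of these lists. Tppp3, a tubulin-polymerizing protein on chromosome 8 from 106193662 to 106198158, had 226, 131, 210 and 117 CPM on day 0 and 36.7, 8.07, 13.2 and 4.65 CPM on day 21 (log2 fold change -3.32, SE 0.456, adjusted p = 4.1e-05 from edgeR). Perp, a protein of desmosomes, and Hspa2, a heat shock protein of the 70 kDa family, fell by 2.46 and 2.71. Pgm5, an adhesion protein of muscle related to phosphoglucomutase, fell from 201, 230, 216 and 224 CPM to 35.5, 18.2, 28.0 and 72.1 CPM. In all 4 genes the groups lay apart, as the rule that named them required. Over all genes tested, 277 (2.69%) were called lower with groups apart.

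The later and earlier days show where day 21 stands, with the day 21 libraries shared by each of these comparisons. Against day 7, 749 genes were called (7.26%), 416 higher (4.03%) and 333 lower (3.23%). Contractile smooth muscle genes were higher on day 21 than on day 7 in 20 of 33, with a median log2 fold change of 1.58 and a summed level of 7285 to 19860 CPM on day 7. Acta2 was at 1537 ± 823 CPM (SD, n = 4) on day 7 and was higher on day 21 by 2.30 (SE 0.349, adjusted p = 0.000188 from edgeR). Notch3 was at 6.20 ± 1.28 CPM (SD, n = 4) on day 7 and was higher by 4.10 (SE 0.461, adjusted p = 8.9e-06 from edgeR). Cytoplasmic ribosomal protein genes were lower than on day 7 in 63 of 77, cell cycle genes in 11 of 28 and chemokines in 7 of 16. Hmga1b, a chromatin protein of dividing cells, was lower than on day 7 by 3.75. The smooth muscle remodelling factor Smarcd3 and the ubiquitin ligase Wwp2 were higher than on day 7 by 2.70 and 1.86.

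Against day 14, with 3 libraries, 0 genes were called by edgeR (0%), 421 had an unadjusted p under 0.05, and DESeq2 called 30. DESeq2 gave no adjusted p for 9596 genes there, so the 2 counts do not cover the same genes. That does not show that the days were alike. Against day 28, with 3 libraries, 70 genes were called (0.679%), 59 higher (0.572%) and 11 lower (0.107%) on day 21. That count is fragile, at 15 when day 28 replicate 2 was left out and 410 when replicate 1 was. It was also 16, 32, 40, 40, 42 and 115 when day 28 replicate 3, day 21 replicate 2, 1 or 4, or day 7 replicate 2 or 4 was. Fibrillar collagens were higher than on day 28 in 4 of 10 and matricellular genes in 6 of 20. Col1a1 was at 2995 ± 631 CPM (SD, n = 3) on day 28 and higher on day 21 by 2.61 (SE 0.307, adjusted p = 8e-05 from edgeR). Eln was at 5454 ± 2350 CPM (SD, n = 3) on day 28 and higher on day 21 by 2.86 (SE 0.526, adjusted p = 0.00774 from edgeR). Ecrg4, which encodes the secreted peptide augurin, had 8.70 ± 2.51 CPM (SD, n = 3) on day 28 and 204 ± 116 CPM (SD, n = 4) on day 21, and was higher on day 21 by 4.52 on the log2 scale (adjusted p = 0.00102 from edgeR). Mgp did not differ past the threshold, at 23370 ± 1340 CPM (SD, n = 3) on day 28 (log2 fold change 0.11, adjusted p = 0.929 from edgeR). Flna was the 1 contractile gene lower on day 21 than on day 28, by 1.29.

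**Figure D5:**
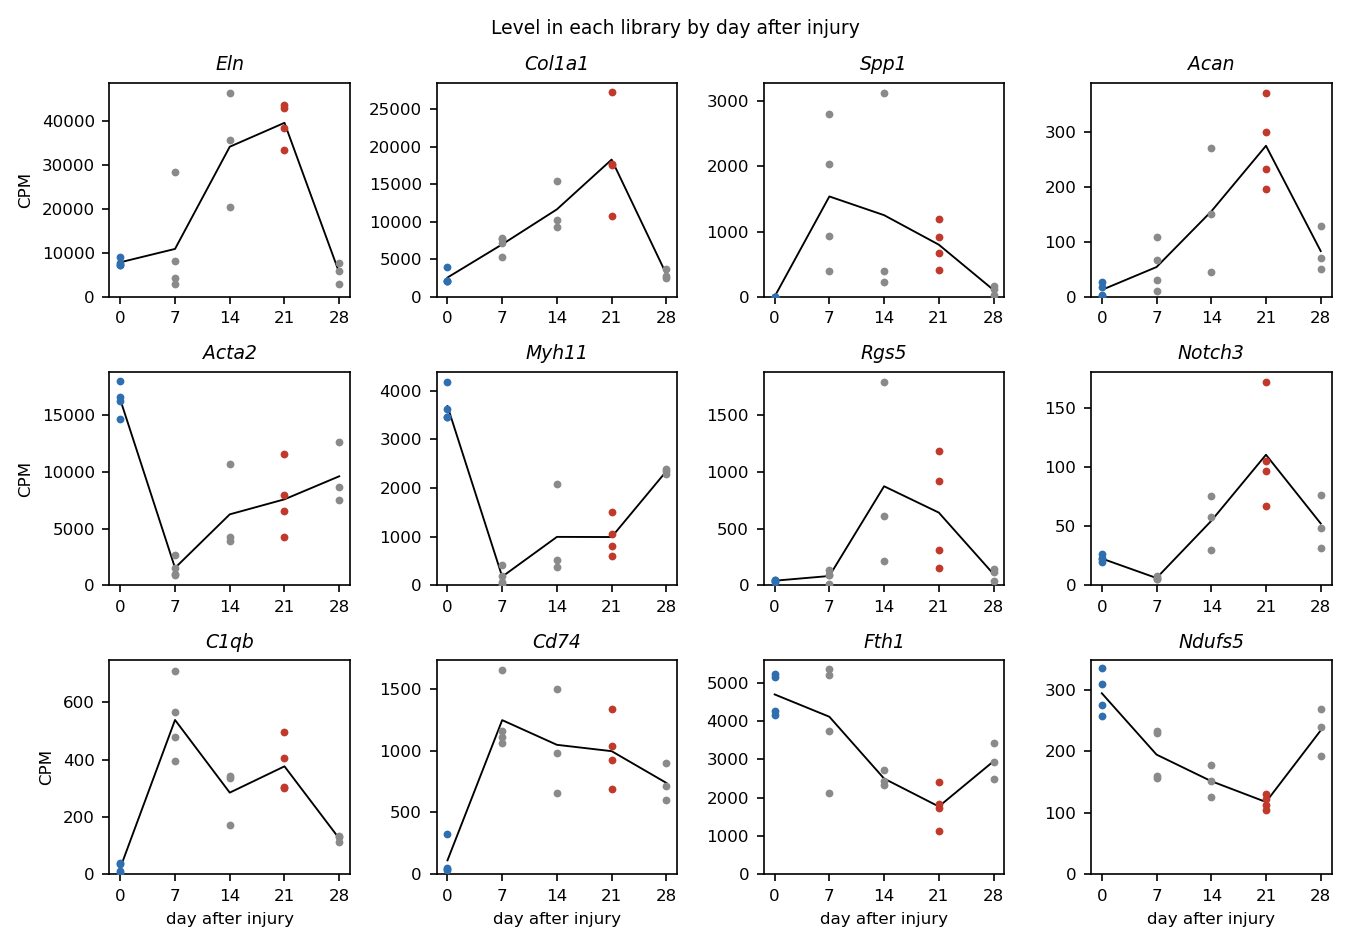
CPM of 12 genes in each of the 18 libraries by day after injury, with day 0 in blue, day 21 in red, the other days in grey and a line through the daily means. Eln, Col1a1, Acan and Notch3 have their highest daily mean on day 21, at 39560, 18300, 274 and 110 CPM, while Fth1 and Ndufs5 have their lowest there, at 1766 and 118 CPM. None of these genes was called between day 14 and day 21. Day 14 replicate 1 had 46450 CPM of Eln, above every day 21 library. In day 14 replicate 2, Col1a1 (15420 CPM), Acan (270) and Notch3 (75.9) lay within their day 21 range.

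The use of strand in the counting is not given in the sources used here. A gene whose exons overlap those of another on the opposite strand may therefore carry its reads, as may Acta2 (with Stambpl1), Tagln (with Pcsk7), Col10a1 (with Nt5dc1), Nid2 (with Rtraf) and Eln (with Gm30003). Nothing in the labels says that the libraries of a group came from separate animals, so p-values measure the spread between libraries. The main fit held the libraries of all days, so that spread is not only that of the days compared.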

How the data were processed

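RNA of laser-dissected sections of mouse carotid arteries was sequenced by MACE in 18 libraries. The authors removed duplicates by molecular identifiers, quantified reads with Salmon 1.9.0 against the mm39 transcriptome, and deposited estimated counts per gene as whole numbers in 1 table, beside a table of normalised values not used here (the submitters' processing notes also name DESeq2 1.36.0). The annotation release and the use of strand are not given in the sources used here.

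Groups came from the labels. The deposited counts of all 18 libraries were fitted by day with edgeR 4.0.16 (limma 3.58.1, R 4.3.3): genes with low counts were filtered by day, totals were scaled by TMM, and day 21 was tested against days 0, 7, 14 and 28 with the quasi-likelihood test and Benjamini-Hochberg adjustment at 0.05. The SE is the size of the log2 fold change divided by the square root of F. CPM and bounds against 3 counts cover counting error only. Totals of 440675 to 878310 counts limit the precision for rare transcripts. In a simulation of day 21 against day 0 on 9862 genes, edgeR recovered 50.5% of 4-fold and 6.32% of 2-fold changes, with 8.33% of 60 calls false, and DESeq2 1.42.0 recovered 59.8% and 13.7%, with 20.2% of 89 calls false. The simulation did not vary depth, changed fewer genes than were called in the data, and took means and spread from all 18 libraries. The shares recovered may therefore not hold for this comparison.

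The comparison and the 42 gene lists were chosen with earlier results of these data known. Genes were named by rule: the 15 of smallest p among genes that rose and among genes that fell, with groups that did not overlap, up to 4 called members of each list and 2 in the other direction with the member of highest CPM, the 3 with the smallest p in each direction against days 7, 14 and 28, and the defining markers. Chosen after their values were seen were Vcl, Cald1, Synm, Filip1l, Mfap4, Mfap5, Efemp2, Emilin1, Col5a1, Col15a1, Dcn, Timp2, Timp3, Pdgfrb, Gpnmb, C5ar1, Cd34, Mki67 and Top2a, and the genes named as overlapping others.

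Alternatives were DESeq2, its size factors in edgeR, no filter, only the days compared, thinning to the smallest library, leaving out each library, and a replicate block by title number or by a number that 3 day 0 and 3 day 21 library names share. What that number marks is not stated. Residuals of libraries with the same title number correlated at -0.039, -0.043, -0.0067 and 0.042, and of those with a shared library number at 0.055, -0.0067 and 0.042. Libraries with neither number in common lay between -0.085 and 0.064. Such correlations cannot exclude that libraries are paired, and the main fit took no pairs. Promoters were read from GRCm39 by GENCODE M39 canonical transcripts, and 10118 of the genes tested had a position. Results of a few genes are not reported here.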

Additional observations from a re-analysis of the deposited data

Results flagged for a closer look

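In a group of 4 libraries, 1 library lay farther from the rest than Dixon's 95% limit in 46 of the 466 groups looked at (9.87%), where chance gives about 1 in 20 in groups of evenly measured values. That rate does not apply here, since in 14 of the 46 the other 3 libraries were at 0 and any count passes the limit. The genes share libraries, so these values are not independent, and no cause was tested.

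Day 0 replicate 1 stood apart most often. It had more than the other 3 day 0 libraries of macrophage and class II genes, with 110.2 CPM of C1qa, 20.84 of Cd68, 7.444 of Cd72, 323.1 of Cd74, 49.13 of Csf1r, 165.3 of H2-Aa and 1.489 of H2-DMb2, and 677.4 CPM summed over class II genes against 48.55 to 114.8. It also had more of Apoe (1194 CPM), Clec3b (452.6), Scara5 (171.2), Cxcl12 (101.2), Hmga1b (114.6), Igfbp3 (8.933), Rsad2 (1.489) and Col1a1 (3953), with 10370 CPM over fibrillar collagens, and less Sparc (2165). Without it 834 genes were called between day 21 and day 0.

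In the other day 0 libraries, replicate 2 was high for Hba-a1 (35.86 CPM), Irf7 (8.368), Kdr (1.195) and S100a8 (2.391). Replicate 3 was high for Alas2 (2.981 CPM) and Robo4 (1.491). Replicate 4 was high for Cav1 (1388 CPM), Ccl5 (3.937), Ccna2 (6.561), Mcm6 (107.6), Nid2 (9.186), P4ha3 (2.625) and S100a9 (2.625).

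On day 21 each library had values of its own. Replicate 1 was high for Col2a1 (858.7 CPM), Acta1 (157.3) and Mylpf (44.95). Replicate 2 was high for Ltbp2 (865.8 CPM) and Robo4 (86.78), and low for P4ha3 (12.11). Replicate 3 was high for S100a8 (241.7 CPM), S100a9 (240.1), Fabp4 (236.8), Flna (2889) and Sh3bgr (78.93), and for the sums of neutrophil genes (596.9 CPM), adventitial fibroblast genes (5925) and chemokines (1075). Replicate 4 was high for Alas2 (2.327 CPM).

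Day 21 differed from other days after injury by a direct test in 749 genes against day 7 and in 70 against day 28 (edgeR).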

How the results depend on the processing

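Of 912 genes called between day 21 and day 0, DESeq2 gave 1276 in all, no filter 1178, thinning 840, and the fit of these 2 days alone 828, of which 51.1% were higher against 66.9%. Leaving out 1 library gave 613 to 1060 called, 437 to 712 higher and 176 to 349 lower, the lowest without day 21 replicate 1. No paired design was taken, and a replicate block by title number gave 830, by library number 808, and in the 3 pairs alone 749, with 386 higher. The same 6 libraries without a block, an alternative chosen after seeing the data, gave 828 and 438 higher. Against day 14, DESeq2 called 30 genes, with no adjusted p for 9596, and no filter gave 23. Against day 28, DESeq2 called 329, no filter 373, and fits without 1 library 15 (without day 28 replicate 2) to 410 (without day 28 replicate 1). The count against day 28 was also 16 without day 28 replicate 3. It was 32, 40 and 40 when day 21 replicate 2, 1 or 4 was left out, and 42 and 115 when day 7 replicate 2 or 4 was. The cause was not tested. Of 156 named genes called, 122 were called in every alternative that gave a value, and 177 of 4137 pairs of a called gene and an alternative lost the call and 0 changed direction. Counts in lists moved by over 1.5 times, or to or from 0, in 229 cases. In 1823 they moved by less or not at all. Outside the fits that leave out a library, the genes higher ranged from 7 to 14 for cartilage, 5 to 9 for proteases, 2 to 7 for integrins, 4 to 8 for MHC class II, 0 to 4 for neutrophils, 2 to 6 for endothelium, 2 to 5 for adventitial fibroblasts, 3 to 10 for chemokines, 4 to 12 for interferon, 5 to 11 for lipid handling and 0 to 6 for the cell cycle. The genes lower ranged from 3 to 9 for calcium signalling and 11 to 28 for ribosomal proteins. In simulated counts with the same library totals edgeR missed most 2-fold changes, and depth was not varied.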
